A study of Mus musculus with 12 samples.

Results

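CD94, its NKG2 partners and related lectin-like receptors of the Klr family are described here across 4 groups of cultured mouse CD4 T cells. The genes were chosen by name from the family members with enough reads for a test: Klrd1, Klrc1, Klrc2, Klrc3, Klre1, Klri2, Klra3, Klra5 and Klrb1f, which are 9 of the 39179 gene IDs counted. Poly-A RNA was sequenced from helper T cells that all carried OT-II, a transgenic T cell receptor for an ovalbumin peptide. KO cells lacked NKG2D (OT-II x NKG2D-/-), the activating receptor encoded by Klrk1, and bore Thy1.1, while WT cells (OT-II) bore Thy1.2 and were additionally gated as NKG2D+. Naive cells from lymph nodes and spleen were stimulated with the OVA323-339 peptide and anti-CD28 next to antigen-presenting cells, at day 0 and day 5, and were sorted at day 8. Th17 cultures held IL-1b, IL-6 and IL-23 with antibodies to IFNg and IL-4, and received IL-12 from the second stimulation. Th1 cultures held IL-2 and IL-12 with an antibody to IL-4. The groups were Th17 KO, Th17 WT, Th1 KO and Th1 WT, with 3 libraries each. Cells of both genotypes were grown in co-culture, and the strain is given as OT-II x NKG2D-/- for KO and C57BL/6 x OT-II for WT. Genotype, Thy1 allele and the NKG2D gate always changed together between KO and WT, so they cannot be told apart. Nothing in the labels assigns libraries to animals or culture dishes. The p-values therefore rest on the spread between these libraries, which could be technical.

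Klr genes lie together in the natural killer gene complex and encode C-type lectin-like receptors best known from natural killer cells. CD94 (Klrd1) reaches the cell surface as a heterodimer with a chain of the NKG2 family, and the pairs bind the non-classical MHC molecule Qa-1, encoded by H2-T23 in mice. NKG2A (Klrc1) carries inhibitory motifs in its cytoplasmic tail, whereas NKG2C (Klrc2) is an activating chain that signals through the adaptor DAP12 (Tyrobp). Activated T cells can also express these receptors.

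All 9 genes are protein coding and lie on chromosome 6 of GRCm38, in a span of 1.29 Mb that runs from 129045901 to 130337574 and contains Klrk1 itself (129610323 to 129623864). Klrd1 (ENSMUSG00000030165, 129591782 to 129598775, plus strand) is 11.5 kb from Klrk1 on one side. Klrc3 (ENSMUSG00000033027, 129639064 to 129643337), Klrc2 (ENSMUSG00000052736, 129647496 to 129660689) and Klrc1 (ENSMUSG00000030167, 129666015 to 129678973), all on the minus strand, follow on the other side at 15.2, 23.6 and 42.2 kb. Klre1 (ENSMUSG00000050241, 129577905 to 129585827, plus strand) is 24.5 kb away, and Klri2 (ENSMUSG00000043932, 129729041 to 129740484, minus strand) 105.2 kb. Klra5 (ENSMUSG00000030173, 129898996 to 129917650, minus strand), Klra3 (ENSMUSG00000067591, 130323289 to 130337574, minus strand) and Klrb1f (ENSMUSG00000030154, 129045901 to 129057464, plus strand) lie 275.1, 699.4 and 552.9 kb away. No exon of the 9 genes overlaps an exon of another gene.

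The Klrc genes resemble each other closely, which limits how surely reads of 75 bases can be assigned to them. Their coding sequences, taken from GENCODE M21 transcripts, are shown at the 5′ end because NKG2A departs there from the activating chains. The first 75 coding bases are given for each gene, and the capital in Klrc3 marks its 1 base unlike Klrc2.
Klrc1: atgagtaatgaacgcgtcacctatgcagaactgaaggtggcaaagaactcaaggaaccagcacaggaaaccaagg
Klrc2: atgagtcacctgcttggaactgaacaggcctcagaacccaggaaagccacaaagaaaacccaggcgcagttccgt
Klrc3: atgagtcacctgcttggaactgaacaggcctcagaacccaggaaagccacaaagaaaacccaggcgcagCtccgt
Compared position by position without gaps, Klrc1 differed from Klrc2 at 47 of these bases and Klrc3 at 1. Whole coding sequences were aligned with gaps allowed. Their identity was 83.1% between Klrc1 and Klrc2, 85.6% between Klrc1 and Klrc3, and 94.9% between Klrc2 and Klrc3. The longest run that Klrc1 and Klrc2 share without a mismatch closes both coding sequences and is shown because a read inside it names neither gene.
Shared end, coding bases 633 to 735 of Klrc1: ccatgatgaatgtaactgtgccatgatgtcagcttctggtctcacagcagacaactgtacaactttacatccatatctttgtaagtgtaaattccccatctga
Of all 75-base windows in the annotated transcripts, 25.0% of Klrc1, 11.3% of Klrc2 and 23.5% of Klrc3 also occurred in another gene, mostly a Klrc gene. The share was 6.39% for Klra3, 0.886% for Klri2 and 0 for Klrd1, Klre1, Klra5 and Klrb1f. In number, 514 of 2055 windows of Klrc1, 692 of 6103 of Klrc2 and 190 of 810 of Klrc3 were shared. The annotated exons of Klrc2 extend far beyond its coding transcript of 1149 bases. Its lower percentage therefore does not mean that its reads are easier to assign. Separate values of the Klrc genes are therefore uncertain, since the treatment of reads with several matches is not given in the sources used here.

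Libraries held 1647232 to 12688637 counts. Th17 KO 2, Th17 WT 2 and Th17 WT 3 were shallow, with 1722228, 2731909 and 1647232 counts, of which 51.0%, 18.3% and 48.1% fell on 1 unnamed ID (ENSMUSG00000045999) that took at most 0.00831% elsewhere. Levels are given as TMM-normalised CPM (counts scaled to library size), and 3 counts, the most that a library with 0 counts leaves room for, equal 0.208 to 3.15 CPM depending on the library, counting error only. Klrk1 was at 3.35, 2.10 and 1.60 CPM in Th17 KO, against 130, 141 and 133 CPM in Th17 WT, and at 5.58, 5.63 and 3.31 CPM in Th1 KO, against 161, 158 and 128 CPM in Th1 WT, as the labels have it. All 6 CD4 T cell markers listed (Cd3d, Cd3e, Cd3g, Cd4, Cd5 and Cd28) were counted in every group. Ncr1, the NKp46 receptor of natural killer cells, had 0 counts in all 12 libraries. Of the other listed natural killer and innate lymphoid markers, Tyrobp, Klrb1c, Eomes, Fcer1g and Cd244a had at most 12 counts in any library, while Itga2 reached 67 counts and Gzma 7458.

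Transcripts of CD94 and of its NKG2A and NKG2C chains were lowest in Th17 KO cells, whose 3 libraries lay below every other library for each of these genes. Klrd1 stood at 25.3, 28.4 and 26.6 CPM in Th17 KO, against 84.6, 98.5 and 85.1 CPM in Th17 WT. In Th1 cultures it stood at 117, 104 and 106 CPM in KO, against 104, 118 and 106 CPM in WT. The Th17 KO libraries thus lay far below the other 9, while the Th1 KO and Th1 WT values overlapped. Klrc1, the inhibitory chain, was at 46.8, 39.9 and 64.3 CPM in Th17 KO, against 170, 177 and 172 CPM in Th17 WT. It was at 329, 324 and 376 CPM in Th1 KO, against 395, 405 and 430 CPM in Th1 WT. For this gene none of the 4 groups overlapped another, and the order was Th17 KO, Th17 WT, Th1 KO and Th1 WT from low to high. Klrc2, the activating chain, followed the same order without overlap, at 12.4, 11.6 and 12.6 CPM in Th17 KO, against 43.0, 57.3 and 48.8 CPM in Th17 WT. Its Th1 values were 85.2, 68.4 and 82.9 CPM in KO, against 113, 97.2 and 94.1 CPM in WT. Klrc3, which encodes the further chain NKG2E, was rare, with 0 to 7 counts in each Th17 KO library and 34 to 40 counts in each Th1 KO library, against 1 to 21 in Th17 WT and 37 to 57 in Th1 WT. Since RNA came from sorted bulk cells, fewer cells with a transcript and less transcript in each cell cannot be told apart.

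**Figure D1:**
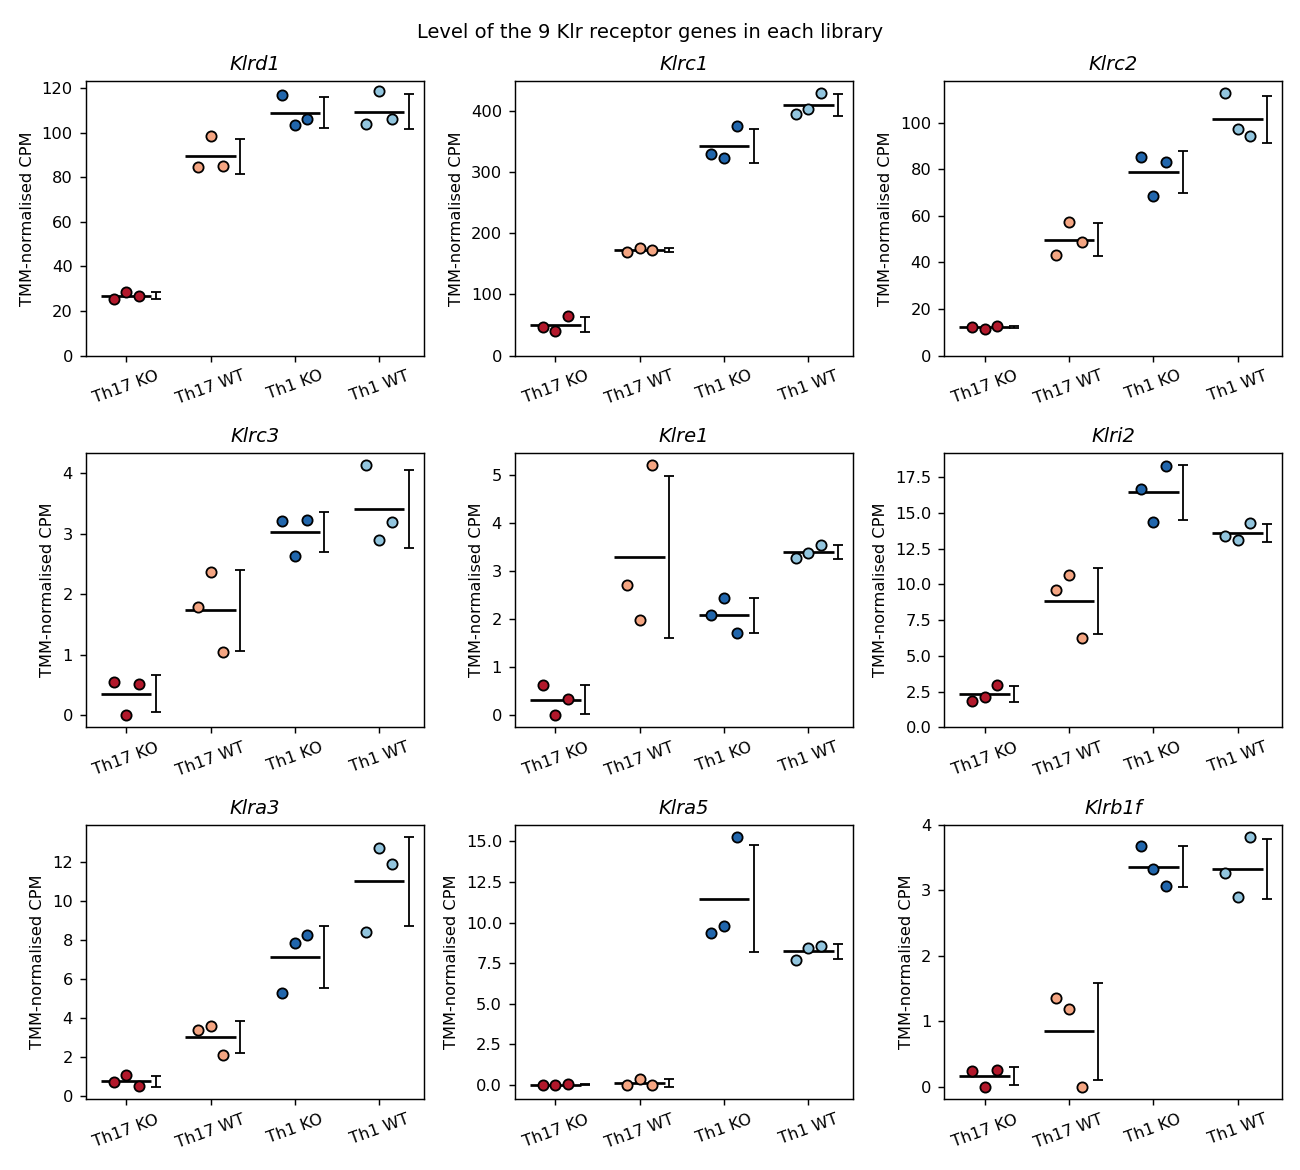
Level of each of the 9 genes in every library, as TMM-normalised CPM on the vertical axis of its own panel, for Th17 KO, Th17 WT, Th1 KO and Th1 WT cells. Points are libraries, horizontal lines are means and the bars at their right are SD (n = 3 each). Th17 KO has the lowest mean in every panel. For Klra5, near 0 in all 6 Th17 libraries, its place below Th17 WT rests on 1 count in each group.

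The remaining receptors were less abundant. Klri2 encodes an activating member of the KLRI pair, whose products form heterodimers with the product of Klre1. It had 1.87, 2.10 (2 counts) and 2.94 CPM in Th17 KO, against 9.57, 10.7 and 6.23 (6 counts) CPM in Th17 WT. Its Th1 levels were 16.6, 14.4 and 18.2 CPM in KO, against 13.3, 13.1 and 14.3 CPM in WT, so that Th1 KO lay slightly above Th1 WT without overlap. Klre1 had 0.623, 0 and 0.336 CPM in Th17 KO, against 2.71, 1.98 and 5.19 CPM in Th17 WT. In Th1 cultures Klre1 had 2.08, 2.43 and 1.70 CPM in KO, against 3.26, 3.37 and 3.54 CPM in WT. Each genotype pair of Klre1 was separate, but the Th17 WT range enclosed the whole Th1 WT range. The highest Th17 WT value of Klre1 came from a shallow library and rested on 5 counts.

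Klra3 and Klra5 encode Ly49C and Ly49E, inhibitory receptors of the Ly49 family. Klra3 was at 0.701, 1.05 and 0.504 CPM in Th17 KO, against 3.39, 3.56 and 2.08 CPM in Th17 WT. It was at 5.29, 7.85 and 8.24 CPM in Th1 KO, against 8.42, 12.7 and 11.9 CPM in Th1 WT. None of the 4 groups overlapped another, but the values of Th17 KO 2 and Th17 WT 3 rested on 1 and 2 counts. Both are below the 3 counts that a library with 0 counts leaves room for. Klra5 behaved differently: its counts were 0, 0 and 1 in Th17 KO and 0, 1 and 0 in Th17 WT. A count of 0 leaves room for 0.234 CPM in Th17 KO 1 and 0.254 CPM in Th17 WT 1, but for 3.15 CPM in Th17 KO 2 and 3.11 CPM in Th17 WT 3. In Th1 cultures Klra5 reached 9.36, 9.80 and 15.3 CPM in KO, against 7.69, 8.46 and 8.53 CPM in WT, the KO range lying above the WT range. Klrb1f, a receptor of the Nkrp1 family, had 3, 0 and 3 counts in Th17 KO, against 16, 3 and 0 counts in Th17 WT. Its Th1 levels of 3.69, 3.34 and 3.07 CPM in KO and 3.26, 2.90 and 3.82 CPM in WT overlapped.

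Levels of different genes can be set side by side only per length. In Th17 KO cells, CPM per kb of 1 coding transcript averaged 29.1 for Klrd1, 25.4 for Klrc1 and 10.6 for Klrc2, with every other gene at 0.607 or less. In Th1 WT cells the same scale gave 207 for Klrc1, 119 for Klrd1 and 88.2 for Klrc2, followed by 8.88 for Klra3, 6.43 for Klra5, 4.77 for Klrc3, 3.47 for Klri2, 2.62 for Klre1 and 1.96 for Klrb1f. The level of Klrc2 depended on the length used, since all its annotated exons together are much longer than the coding transcript and gave a Th1 WT level of 17.4 CPM per kb.

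Whether cells without NKG2D differ from NKG2D+ cells in these receptors was examined first in Th17 cultures. In Th17 KO, 8 of the 9 genes were lower than in Th17 WT and 0 were higher by edgeR's quasi-likelihood test with Benjamini-Hochberg adjustment over 12189 genes, against 4.02% lower and 1.81% higher among all genes tested. The median log2 fold change of the 9 genes was -1.94, beside 0.00 for all genes. Ranges of KO lay wholly below those of WT for 7 genes and above for 0, patterns that 9.59% and 8.94% of all genes showed. Klrd1 averaged 26.8 ± 1.53 CPM in Th17 KO and 89.4 ± 7.85 CPM in Th17 WT (SD, n = 3 each), a log2 fold change of -1.77 ± 0.09 (SE, edgeR adjusted p = 8.69e-13). Klrc1 averaged 50.3 ± 12.6 CPM in Th17 KO and 173 ± 3.50 CPM in Th17 WT, with -1.69 ± 0.12 (edgeR adjusted p = 2.75e-07). Klrc2 averaged 12.2 ± 0.551 and 49.7 ± 7.20 CPM in those groups, with -1.94 ± 0.14 (edgeR adjusted p = 2.58e-08). Transcripts of CD94, its inhibitory chain and its activating chain were thus all lower in Th17 KO cells. Reads that match both Klrc1 and Klrc2 leave the separate sizes of their differences uncertain. The rarer NKG2E chain, Klrc3, gave -1.84 ± 0.46 (edgeR adjusted p = 0.0157).

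Klri2 and its partner gene Klre1 also fell in Th17 KO, with log2 fold changes of -1.995 ± 0.23 (edgeR adjusted p = 1.78e-06) and -2.55 ± 0.44 (edgeR adjusted p = 5.68e-04). Klra3 gave -2.39 ± 0.42 (edgeR adjusted p = 5.68e-04). Klrb1f gave -2.33 ± 0.59 (edgeR adjusted p = 0.0166), although its ranges met at 0 counts. Klra5, with 1 count in each Th17 group, allowed no reading (ratio of KO to WT 0.595, exact 95% counting interval 0.00758 to 46.7). The calls of Klrc3 and Klrb1f were the fragile ones: leaving out Th17 WT 1 gave edgeR adjusted p-values of 0.123 for Klrc3 and 0.374 for Klrb1f, leaving out Th17 KO 1 gave 0.0587 and 0.0800, leaving out Th17 KO 3 gave 0.0676 and 0.0640, and Klrc3 was also lost without Th17 WT 2 (0.0523). Klrc3 did not pass without the 3 shallow libraries (0.0737), Klrb1f with DESeq2 (0.0554) or limma-voom (0.0767), and neither in a fit of the 2 Th17 groups alone (0.0505 and 0.0608).

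Markers of other cells were set beside this difference, and their part in it was not tested. The summed level of the 8 natural killer and innate lymphoid markers was 15.8 to 19.9 CPM in Th17 KO, against 46.3 to 56.2 CPM in Th17 WT, mostly from Gzma, a granzyme that helper T cells can also make, while Ncr1 was at 0. Gzma was lower in Th17 KO (-1.60 ± 0.38, edgeR adjusted p = 0.0497), a call near the threshold that was not kept in every alternative. Itga2, the integrin chain CD49b, averaged 0.727 CPM in Th17 KO and 3.29 CPM in Th17 WT, with KO below WT in every library. Its log2 fold change did not pass (-0.84 ± 0.47, edgeR adjusted p = 0.383). Pooled Itga2 counts were 27 in each group, and the highest Th17 WT value, 6.23 CPM in the shallow Th17 WT 3, rested on 6 counts. Summed levels of the 5 B cell markers were 2.10 to 4.79 CPM in Th17 KO, against 0.763 to 1.58 CPM in Th17 WT, with 5 and 4 markers counted. The 6 myeloid and dendritic markers summed to 4.199 to 4.516 CPM in Th17 KO, against 3.11 to 5.14 CPM in Th17 WT, and the 2 CD8 markers to 3.15 to 5.14 CPM, against 1.04 to 6.61 CPM. Gamma delta constant genes summed to at most 0.168 CPM in Th17 KO and were at 0 in Th17 WT.

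In Th1 cultures the same comparison gave small differences in both directions. Klrc2 and Klra3 were lower in Th1 KO, 2 of 9 genes, and 0 were higher, against 2.92% lower and 1.69% higher among all genes. The median log2 fold change of the 9 genes was -0.18, beside 0.00 for all genes. Klrc2 averaged 78.9 ± 9.11 CPM in Th1 KO and 101 ± 10.01 CPM in Th1 WT, a log2 fold change of -0.37 ± 0.09 (edgeR adjusted p = 0.0189). Klra3 averaged 7.13 ± 1.60 CPM in Th1 KO and 10.99 ± 2.27 CPM in Th1 WT, with -0.61 ± 0.17 (edgeR adjusted p = 0.0374). Klrd1 averaged 109 ± 7.01 CPM in Th1 KO and 109 ± 7.87 CPM in Th1 WT, with -0.01 ± 0.07 (edgeR adjusted p = 0.980), an SE that leaves room for only a small difference. Klrc1 (-0.26 ± 0.09, edgeR adjusted p = 0.162) and Klre1 (-0.70 ± 0.25, edgeR adjusted p = 0.117) had KO ranges below WT but did not pass. Klri2 (0.27 ± 0.12, edgeR adjusted p = 0.265) and Klra5 (0.48 ± 0.18, edgeR adjusted p = 0.138) had KO ranges above WT and did not pass. In all, 4 genes had separate ranges below and 2 above, where all genes had 13.4% and 11.1%. Klrc3 (-0.18 ± 0.22) and Klrb1f (0.01 ± 0.22) overlapped.

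Both Th1 calls depended on single libraries. Klrc2 did not pass without Th1 KO 2 (edgeR adjusted p = 0.124) or Th1 WT 1 (0.0917), and Klra3 did not pass without Th1 KO 1 (0.210), Th1 KO 2 (0.0773), Th1 WT 2 (0.235), Th1 WT 3 (0.151) or the 3 shallow libraries (0.0592). With DESeq2 neither passed (0.0613 and 0.250), while Klrc1 passed with limma-voom (0.0119), without a filter on low counts (0.00459), without Th17 KO 3 (0.0148) and in a fit of the 2 Th1 groups alone (0.00952), where Klrc2 (0.0828) and Klra3 (0.0585) did not. The 8 natural killer and innate lymphoid markers, again mostly Gzma, summed to 313 to 607 CPM in Th1 KO, against 230 to 355 CPM in Th1 WT. Gzma itself did not pass there (0.72 ± 0.24, edgeR adjusted p = 0.177), and its ranges overlapped, although its lowest adjusted p among the alternatives was 0.0232. The B cell markers summed to 0.278 to 0.969 CPM in Th1 KO, against 0.208 to 0.313 CPM in Th1 WT, and the myeloid and dendritic markers to 1.81 to 2.99 CPM, against 1.41 to 1.67 CPM. Gamma delta constant genes summed to 0.473 to 1.53 CPM in Th1 KO, against 0.145 to 0.313 CPM in Th1 WT, and CD8 markers to 2.08 to 2.74 CPM, against 2.84 to 3.70 CPM. The part of these markers in the receptor levels was not tested.

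**Figure D2:**
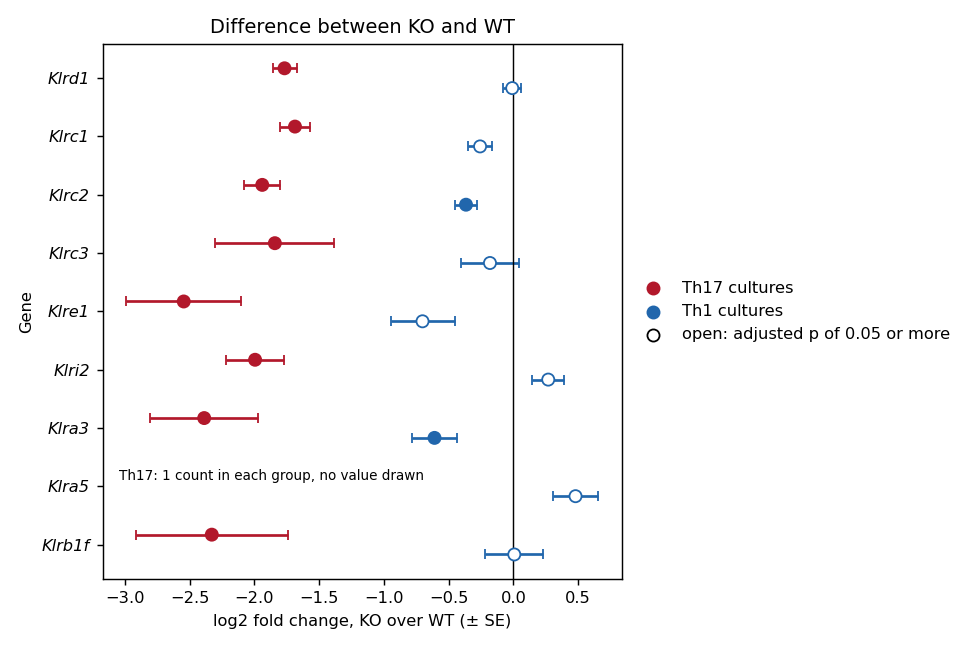
Log2 fold change of KO over WT for each gene, in Th17 cultures (red) and Th1 cultures (blue), with SE as bars. Filled points have an edgeR adjusted p under 0.05. The Th17 points drawn lie between -2.55 and -1.69, and the Th1 points between -0.70 and 0.48.

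Whether the difference between KO and WT cells was alike in the 2 cultures was tested directly as an interaction. It passed for Klrd1, Klrc1, Klrc2 and Klri2, 4 of 9 genes, each with a lower log2 fold change of KO over WT in Th17 than in Th1, against 0.476% of all genes in that direction and 0.115% in the other. The log2 fold change in Th17 minus that in Th1 was -1.76 ± 0.11 for Klrd1 (edgeR adjusted p = 3.01e-10) and -1.43 ± 0.15 for Klrc1 (edgeR adjusted p = 1.44e-04). It was -1.57 ± 0.17 for Klrc2 (edgeR adjusted p = 2.31e-05) and -2.26 ± 0.26 for Klri2 (edgeR adjusted p = 1.21e-05). These calls held in each of the 19 alternatives tried. Klra3 (-1.78, edgeR adjusted p = 0.0759), Klrb1f (-2.34, 0.0918), Klre1 (-1.84, 0.109) and Klrc3 (-1.66, 0.166) had few counts and did not pass. Klra3 passed without a filter on low counts (0.0103) and without Th1 KO 1 (0.0371).

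How far the receptor levels follow the culture condition was compared separately within each genotype. Among KO cells all 9 genes were lower in Th17 than in Th1, where 26.7% of all genes were lower and 26.9% higher, and all 9 had ranges that did not overlap (28.6% of all genes lay below and 27.1% above). Among WT cells 8 of 9 were lower, against 23.6% lower and 23.5% higher among all genes, and 8 ranges lay below (27.5% of all genes, with 24.6% above). The median log2 fold change of the 9 genes was -2.68 in KO and -1.09 in WT, beside 0.00 and -0.01 for all genes. Klrc3, Klra5 and Klrb1f passed the filter on low counts, 0.942 CPM in at least 3 libraries, only through Th1 libraries, so a lower Th17 level was built into their being tested, and these counts and medians are descriptions. The other 6 genes reached that level in at least 3 Th17 libraries, and of them 6 were lower in Th17 in KO and 5 in WT. Klre1 and Klra3 did so only through Th17 WT, with 0 Th17 KO libraries at that level, so their KO calls are descriptions too. Klrd1, Klrc1, Klrc2 and Klri2 reached it in all 3 Th17 KO libraries. These comparisons use the same libraries as the genotype comparisons and are no independent evidence of them.

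Klrd1 had a log2 fold change of Th17 over Th1 of -2.06 ± 0.08 in KO cells (edgeR adjusted p = 1.42e-16) and of -0.30 ± 0.08 in WT cells (edgeR adjusted p = 0.00265). Klrc1 gave -2.68 ± 0.11 in KO (edgeR adjusted p = 1.34e-11) and -1.25 ± 0.10 in WT (edgeR adjusted p = 7.99e-08). Klrc2 gave -2.66 ± 0.12 in KO and -1.09 ± 0.11 in WT (edgeR adjusted p = 3.33e-13 and 7.82e-08). Transcripts of both the inhibitory and the activating chain were thus lower in Th17 cells of either genotype. Klri2 gave -2.78 ± 0.19 in KO and -0.51 ± 0.17 in WT (edgeR adjusted p = 2.88e-12 and 0.0120). Klre1 gave -2.13 ± 0.40 in KO (edgeR adjusted p = 7.45e-05), and in WT -0.29 ± 0.30, which did not pass (edgeR adjusted p = 0.459). Klrc3 gave -2.55 ± 0.36 in KO and -0.89 ± 0.31 in WT (edgeR adjusted p = 1.51e-06 and 0.0223). Without Th17 WT 1, the deep library of its group, the WT differences of Klrd1, Klrc3 and Klri2 did not pass (edgeR adjusted p = 0.0767, 0.269 and 0.114), and the number of genes lower in WT was 5. Klrc3 in WT also did not pass without Th1 WT 1 (0.0860), with DESeq2 (0.112) or with limma-voom (0.0683).

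The Ly49 and Nkrp1 receptors had few counts in Th17 cells, and Klra5 and Klrb1f were tested only because of their Th1 levels. For Klra5, pooled counts were 1 in Th17 KO, against 429 in Th1 KO, and 1 in Th17 WT, against 337 in Th1 WT. The ratio of Th17 to Th1 was 0.00339 in KO (exact 95% counting interval 8.56e-05 to 0.0190) and 0.00795 in WT (2.01e-04 to 0.0446), and edgeR's test passed in both (adjusted p = 2.06e-12 and 1.43e-09). Klra3 gave a log2 fold change of -3.50 ± 0.32 in KO and -1.72 ± 0.25 in WT (edgeR adjusted p = 8.46e-10 and 2.81e-06), and Klrb1f gave -3.78 ± 0.42 and -1.44 ± 0.35 (edgeR adjusted p = 3.20e-08 and 0.00122). Unlike Klra5, both were counted in Th17 WT cells, with 51 and 19 pooled counts. The marker sums given above also differed between the cultures, with Gzma far lower in Th17 cells (-4.85 ± 0.34 in KO and -2.54 ± 0.31 in WT, edgeR adjusted p = 3.12e-06 and 1.72e-04), and Ncr1 at 0 throughout.

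**Figure D3:**
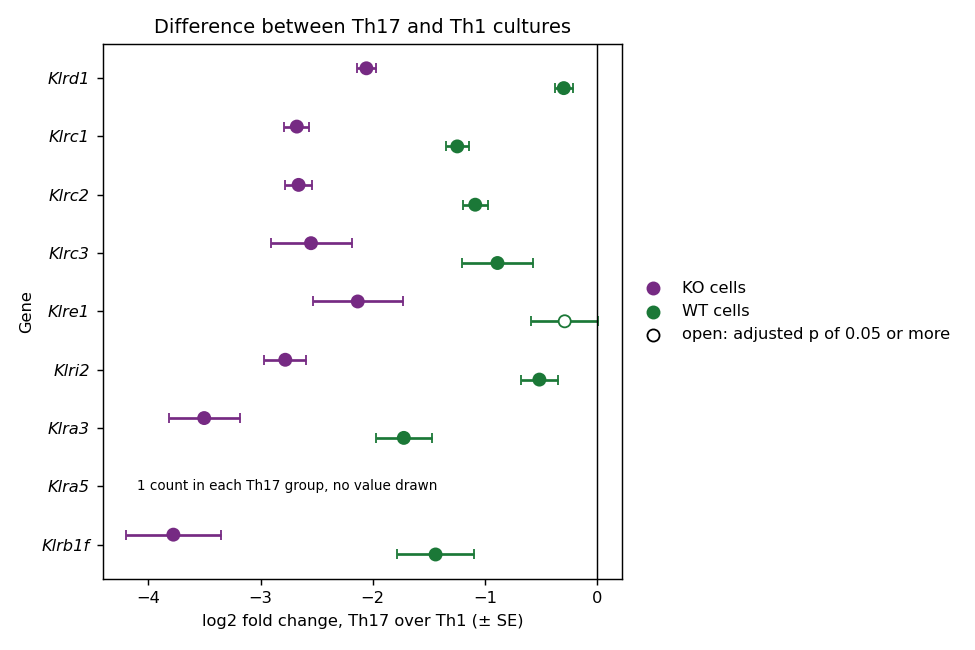
Log2 fold change of Th17 over Th1 for each gene, in KO cells (purple) and WT cells (green), with SE as bars. Filled points have an edgeR adjusted p under 0.05. KO points drawn lie between -3.78 and -2.06, and WT points between -1.72 and -0.29.

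Because CD94 pairs with either NKG2 chain, the balance of the transcripts was followed in each library. Klrc2 made up 20.9%, 22.4% and 16.4% of the Klrc1 and Klrc2 counts in Th17 KO, against 20.2%, 24.5% and 22.1% in Th17 WT. In Th1 cultures the share was 20.6%, 17.4% and 18.1% in KO, against 22.2%, 19.4% and 18.0% in WT. All groups overlapped, and NKG2A gave most of the counts in every library. Mean shares were 19.9% ± 3.16 in Th17 KO and 22.3% ± 2.15 in Th17 WT (exact two-sided permutation p = 0.5), and 18.7% ± 1.64 in Th1 KO and 19.8% ± 2.17 in Th1 WT (exact permutation p = 0.6). The shallowest library, Th17 KO 2, had 49 such counts, which gave a 95% Wilson interval of 13.0% to 35.9%. Reads that match both genes make the share itself uncertain.

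The amount of Klrd1 relative to Klrc1, Klrc2 and Klrc3 together, each per kb of exon, was 0.747, 1.001 and 0.589 in Th17 KO, against 0.692, 0.752 and 0.687 in Th17 WT. It was 0.493, 0.452 and 0.399 in Th1 KO, against 0.362, 0.412 and 0.349 in Th1 WT. Every Th17 library thus had more Klrd1 per NKG2 transcript than every Th1 library. The ratio was 1.70-fold higher in Th17 than in Th1 among KO cells and 1.90-fold higher among WT cells, each with an exact two-sided permutation p of 0.1, the smallest that 3 against 3 libraries can give (0.4 after adjustment over 8 tests). Lengths of 1 coding transcript gave 1.67-fold and 1.84-fold. Between the genotypes the log2 ratios of KO over WT were 0.10 in Th17 (exact permutation p = 0.8) and 0.26 in Th1 (p = 0.2), with overlapping ranges, and the Th17 value became -0.10 without Th17 KO 2.

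**Figure D4:**
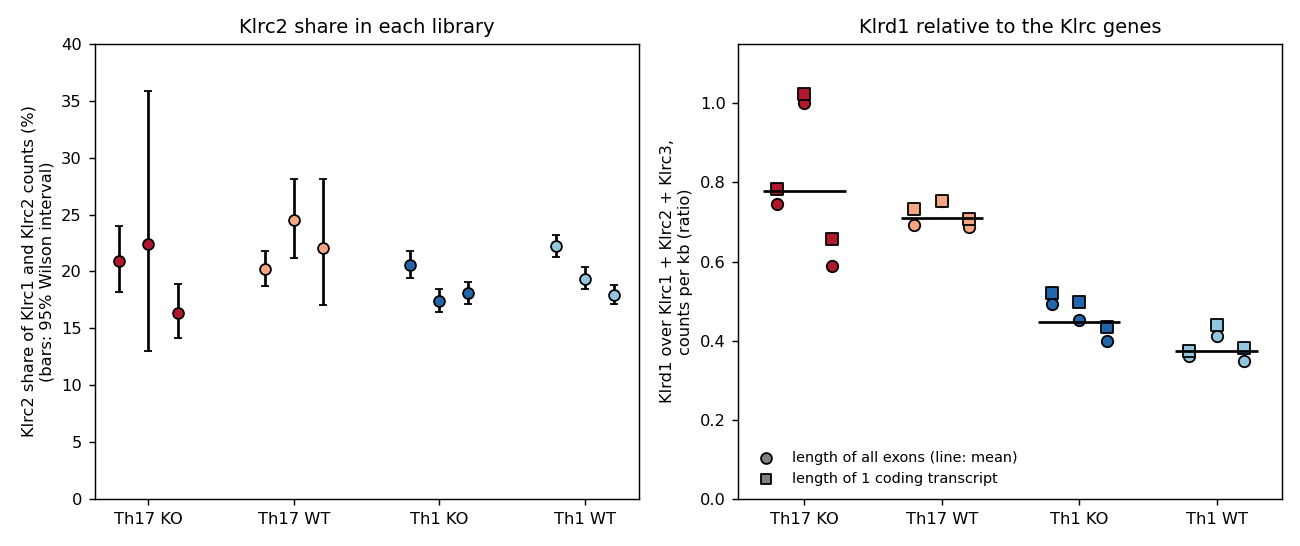
Left, share of Klrc2 in the Klrc1 and Klrc2 counts (%) of each library with 95% Wilson intervals. Right, ratio of Klrd1 to the sum of Klrc1, Klrc2 and Klrc3 in counts per kb, with circles for all exons, squares for 1 coding transcript and lines for the mean of the circles. Shares run from 16.4% to 24.5% with no separation of groups, while the circles of Th17 libraries (0.589 to 1.001) all lie above those of Th1 libraries (0.349 to 0.493).

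Upstream sequence was read from RefSeq (GRCm38.p6), whose table matched 7 of the 9 genes, Klrd1 and Klri2 being the others. Windows of 250 bases before each start were searched on both strands for TGTGGT (RUNX), GGTGTGA (T-box), TTCNNNGAA (STAT) and TGANTCA (AP-1). The motifs do not overlap one another in these windows. TGTGGT was present before RefSeq starts of Klrc1, Klrc2, Klrc3 and Klre1, where 14.0% of 32851 windows of the same length held it. By the GENCODE coordinates given above, the Klrc2 and Klre1 matches lie inside those genes. The same holds for the Klrc3 match 49 bases before its RefSeq start. The Klrc2 and Klrc3 windows are near copies of each other (98.8% identical where they could be aligned). The other letters, present in 3.33%, 7.02% and 6.75% of all windows, were not in the windows of these 7 genes. The windows of Klrc1 and Klrc3 are shown because they keep a match once bases that GENCODE places in an exon are left out. Trimmed in the same way, the Klrc2 windows hold no match. The RUNX letters (read on the opposite strand as ACCACA) are in capitals.
Klrc1, chr6:129678974-129679223, minus strand: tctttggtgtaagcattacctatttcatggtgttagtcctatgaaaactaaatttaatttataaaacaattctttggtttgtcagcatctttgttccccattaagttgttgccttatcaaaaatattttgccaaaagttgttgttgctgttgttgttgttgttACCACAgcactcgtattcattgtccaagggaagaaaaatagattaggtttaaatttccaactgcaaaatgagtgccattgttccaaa
Klrc3, chr6:129643338-129643538, minus strand: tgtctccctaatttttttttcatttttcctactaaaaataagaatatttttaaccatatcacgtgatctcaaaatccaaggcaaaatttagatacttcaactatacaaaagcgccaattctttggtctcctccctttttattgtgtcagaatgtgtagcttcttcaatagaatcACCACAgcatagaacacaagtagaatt
The capitals start 87 bases before the RefSeq start of Klrc1 and 76 before that of Klrc3. They are letter matches only.

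Klra5 and Klra3 are also related in sequence although their counts in Th17 cells were unlike. Their coding sequences are 89.1% identical. Before their RefSeq starts 179 bases could be aligned, of which 160 (89.4%) agree. By the GENCODE coordinates given above, the Klra5 stretch lies inside the Klra5 gene, whereas the Klra3 stretch lies upstream of the Klra3 gene. Those stretches are shown with the differing bases in capitals.
Klra5, chr6:129913296-129913474, minus strand: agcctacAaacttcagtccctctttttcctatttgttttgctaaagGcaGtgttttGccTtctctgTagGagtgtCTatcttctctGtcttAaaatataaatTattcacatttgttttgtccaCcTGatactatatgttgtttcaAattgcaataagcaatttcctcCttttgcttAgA
Klra3, chr6:130337627-130337805, minus strand: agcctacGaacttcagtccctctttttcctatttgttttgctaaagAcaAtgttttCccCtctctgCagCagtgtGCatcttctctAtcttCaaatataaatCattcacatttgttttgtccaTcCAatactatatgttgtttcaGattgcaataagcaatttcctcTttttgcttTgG
The Klra5 stretch ends 72 bases before its RefSeq start, and the Klra3 stretch ends at its start.

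Position was then examined, since all 9 genes flank the gene that KO cells lack. The labels do not describe how the NKG2D allele was made, so the loss of the receptor and any effect of the altered allele on nearby genes cannot be told apart. Of the genes inside the span, 15 were tested, which leaves 5 outside the Klr family besides Klrk1. Those 5, Clec2d, 2310001H17Rik, Cd69, Clec12a and Gabarapl1, had log2 fold changes of KO over WT between -0.35 and 0.23 in Th17, with a median of -0.24. Gabarapl1, an autophagy gene, was the 1 that passed in Th17 (-0.35 ± 0.10, edgeR adjusted p = 0.0320), a call lost without any 1 of Th17 KO 1, KO 2, KO 3, WT 1 and WT 2 (0.0525 to 0.289) and with DESeq2 (0.0962) or limma-voom (0.116). Clec2d, which encodes a ligand of Nkrp1 receptors, was the 1 that passed in Th1 (-0.42 ± 0.10, edgeR adjusted p = 0.0180), a call lost without Th1 KO 1, KO 2, WT 2 or WT 3 (0.0651 to 0.127) and with DESeq2 (0.0755). In Th17 the log2 fold change was -1.77 for Klrd1, 11.5 kb from Klrk1, and -2.39 for Klra3, 699.4 kb away. In Th1 cultures the values of Klrd1 and Klra3 were -0.01 and -0.61. The part of the altered allele in these differences was not tested.

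**Figure D5:**
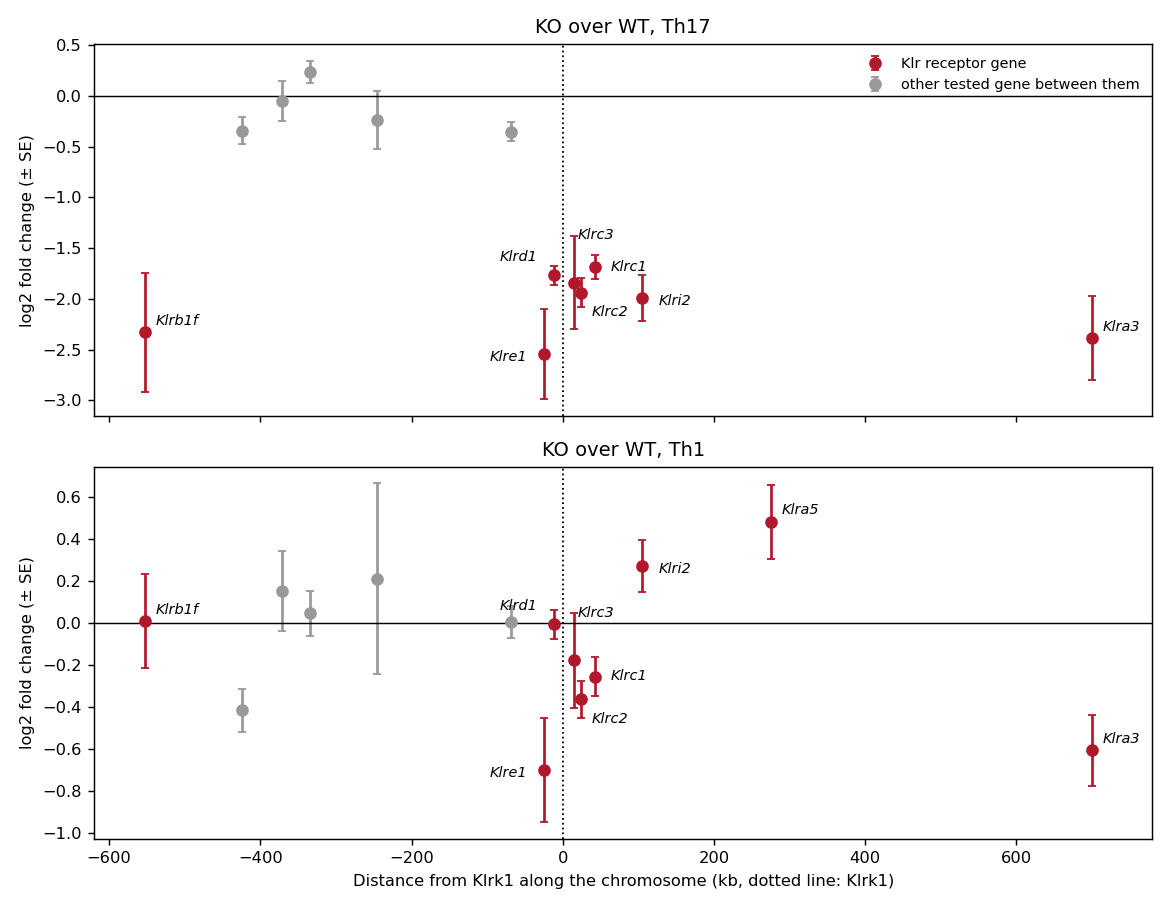
Log2 fold change of KO over WT (SE as bars) against the distance from Klrk1 in kb, in Th17 (upper panel) and Th1 cultures (lower panel), with Klr receptor genes in red and the 5 other tested genes of the span in grey. Klra5 is not drawn for Th17. There the red points lie at -1.69 or below and the grey points at -0.35 or above, and in Th1 both kinds scatter around 0.

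Of 20 further Klr genes looked for, 19 were in the tables and Klrk1 was the 1 with enough counts for a test. The others, among them the Ly49 genes Klra1, Klra4, Klra7 and Klra8 and the Nkrp1 gene Klrb1c, had at most 9 counts in any library, and Klrb1a and Klri1 had 0 throughout. Klri1, the inhibitory counterpart of Klri2, was thus not detectable at this depth.

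Ligands and signalling genes of these receptors were 19 in number, of which 17 were tested. In Th17 KO 6 of the 17 were lower and 0 higher than in Th17 WT, where 4.02% of all genes were lower and 1.81% higher. These were H2-T23, H2-D1, Tap1, Hcst, Lck and Fyn. H2-T23, which encodes the CD94 ligand Qa-1, averaged 206 CPM in Th17 KO and 246 CPM in Th17 WT, with a log2 fold change of -0.26 ± 0.06 (edgeR adjusted p = 0.0128), a call lost without Th17 KO 3 (0.0953) or without the 3 shallow libraries (0.0595). The count of 6 became 3 without Th17 KO 1, Th17 KO 3, Th17 WT 1 or the 3 shallow libraries, 4 without Th17 WT 2 and 1 in a fit of the 2 Th17 groups alone, and Fyn was the 1 gene called in every alternative. In Th1 KO 5 of the 17 were lower and 0 higher than in Th1 WT, where 2.92% of all genes were lower and 1.69% higher. These were H2-T23, B2m, Tap1, Clec2d and Fyn. H2-T23 averaged 129 CPM in Th1 KO and 183 CPM in Th1 WT there, with -0.51 ± 0.06 (edgeR adjusted p = 2.87e-06), and the count of 5 became 2 without Th1 WT 2, H2-T23 and Fyn being the genes called in every alternative. The median log2 fold change of the 17 genes was -0.23 in Th17 and -0.07 in Th1. Between cultures H2-T23 was higher in Th17 than in Th1, in KO (0.68 ± 0.06, edgeR adjusted p = 7.10e-10) and in WT (0.43 ± 0.06, edgeR adjusted p = 2.04e-06), the opposite direction to the receptor genes that passed. Among KO cells 10 of the 17 were lower and 4 higher in Th17, beside 26.7% and 26.9% of all genes, and among WT cells 6 were lower and 2 higher, beside 23.6% and 23.5%. Ptpn6, the phosphatase SHP-1 that inhibitory receptors recruit, was higher in Th17 (0.54 ± 0.10 in KO, 0.77 ± 0.10 in WT, edgeR adjusted p = 1.97e-04 and 7.18e-06). The listed phosphatase genes Inpp5d and Ptpn11 went the other way. Inpp5d gave -0.42 ± 0.07 in KO and -0.39 ± 0.08 in WT (edgeR adjusted p = 2.14e-05 and 1.34e-04). Ptpn11 gave -0.17 ± 0.07 in KO (edgeR adjusted p = 0.0354), a call not kept in every alternative, and did not pass in WT (-0.14 ± 0.07, edgeR adjusted p = 0.126). Tyrobp, through which NKG2C signals in natural killer cells, had at most 3 counts in any library and was not tested, while Hcst, the adaptor DAP10, averaged 8.01 CPM in Th17 KO, 11.4 in Th17 WT, 13.6 in Th1 KO and 14.3 in Th1 WT.

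The genes most like Klrd1 were found by the root mean square difference of log2 CPM over the 12 libraries, each gene centred on its own mean. Outside the 9 genes the nearest included Hopx (0.304), Nkg7 (0.304), Bcl2l11 (0.333) and Styk1 (0.338), where the median over 12188 genes was 0.893. Hopx encodes a small homeodomain protein of effector T cells, Nkg7 a protein of cytotoxic granules and Bcl2l11 the death-inducing protein BIM. Nkg7 averaged 16.6 CPM in Th17 KO, 58.8 in Th17 WT, 61.6 in Th1 KO and 72.5 in Th1 WT. Hopx, Nkg7, Bcl2l11 and Styk1 lie on chromosomes 5, 7, 2 and 6, so a similar pattern was also found outside chromosome 6. Their log2 fold changes of KO over WT in Th17 were -1.22, -1.57, -1.63 and -1.58. Since the genes were picked by likeness in these libraries, the values are descriptions. Nearest to Klrc1 was Klrc2 (0.208), followed by Klri2 (0.306), where the median was 1.23. Outside the set the closest were Xdh (0.330), Metrnl (0.338), Hopx (0.346), Bcl2l11 (0.347) and Plac8 (0.358). The closeness of Klrc2 to Klrc1 includes the sequence that they share. Klrd1 itself ranked 32 among all genes by likeness to Klrc1, and Klrc1 ranked 80 by likeness to Klrd1.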

How the data were processed

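Poly-A RNA of 12 libraries was measured with the Smart-Seq v4 and Nextera XT kits, which do not mark strand, and paired reads of 75 bases, per the labels' protocols for kits and reads. TopHat2, Bowtie2 and featureCounts were used on GRCm38 (mm10), per the submitters' processing notes. Not given in the sources used here are tool versions, strand setting, annotation release and the treatment of reads with several matches. The authors deposited raw counts per Ensembl gene ID.

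Counts were normalised by TMM and filtered with filterByExpr over the 4 groups (12189 genes), then compared with edgeR 4.0.16 (quasi-likelihood F-test, robust, all 12 libraries, Benjamini-Hochberg over all genes within each of 5 comparisons, threshold 0.05). Positive log2 fold changes mean higher in KO or in Th17. The test was checked on simulated data with 200 changed genes. Shares and ratios were compared by exact permutation tests. All 9 genes were named, and similar genes were the 5 nearest outside the set, of which 1 is not reported here. The genes, lists and tests were chosen with earlier results of these data known. Alternatives were RLE size factors, DESeq2 1.42.0, limma-voom (limma 3.58.1), no filter, the compared groups alone, handling of the 3 shallow libraries and their dominant ID, and each library left out. A second gene length was added after seeing the data. Replicate numbers follow accession order and pair no libraries. Coding sequences came from GENCODE M21 and upstream windows from RefSeq (GRCm38.p6). R 4.3.3 and Python 3.11.15 were used.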

Additional observations from a re-analysis of the deposited data

Results flagged for a closer look

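The difference between KO and WT cells was unlike in the 2 cultures by the interaction test for 4 of the 9 receptors. Genotype, Thy1 allele and the NKG2D gate changed together in it and cannot be told apart. For Klrd1 the log2 fold change of KO over WT was -1.77 in Th17 and -0.01 in Th1, a difference of -1.76 (edgeR adjusted p = 3.01e-10). For Klrc1 it was -1.69 in Th17 and -0.26 in Th1, a difference of -1.43 (edgeR adjusted p = 1.44e-04). For Klrc2 it was -1.94 in Th17 and -0.37 in Th1, a difference of -1.57 (edgeR adjusted p = 2.31e-05). For Klri2 it was -1.995 in Th17 and 0.27 in Th1, a difference of -2.26 (edgeR adjusted p = 1.21e-05). Each gene was lower in all 3 Th17 KO libraries than in any Th17 WT library.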

How the results depend on the processing

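No paired analysis was possible because the labels give no replicate numbers and do not say which KO and WT libraries came from the same co-culture; library codes in the titles may mark shared cultures, and any such pairing was not tested. Of 45 values (9 genes in 5 comparisons), 32 kept their direction and side of the threshold in every alternative; over 888 alternatives 29 lost a call, 6 gained one and 12 changed sign. The number of genes past the threshold ranged with single libraries left out from 6 to 8 (main 8) for KO against WT in Th17, 0 to 3 (main 2) in Th1, 9 to 9 (main 9) for Th17 against Th1 in KO, 5 to 8 (main 8) in WT and 4 to 5 (main 4) for the interaction. In Th1, KO against WT gave 0 with DESeq2 and 1 without the shallow libraries or with the 2 groups alone; Klrd1 there ran from -0.0610 to 0.0515 and Klrb1f from -0.0789 to 0.120 with 1 library left out, with the sign of Klrd1 changed without Th1 KO 2, KO 3 or WT 2 and that of Klrb1f without Th1 KO 1, WT 1 or WT 2. Klra5 in Th17 ran from -2.62 to 2.11 (positive without Th17 KO 1 or WT 2) and its interaction from -3.10 to 1.63 (positive without Th17 WT 2), and without the shallow libraries they were 2.36 and 1.87, with 0.32 in Th17 under a term for those libraries. The Klrc2 share difference ran from -2.10 to 0.0259 points in Th1 (0.0259 without Th1 WT 1) and from -3.61 to -0.573 in Th17. The log2 ratio of Klrd1 to the Klrc genes ran from 0.19 to 0.34 in Th1 and from -0.10 to 0.28 in Th17 (-0.0984 without Th17 KO 2, -0.0618 without the shallow libraries). Over all genes, the count of 711 in Th17 became 312 without the shallow libraries, 411 to 708 with 1 library left out, 429 with limma-voom and 395 with the 2 groups alone. The count of 562 in Th1 became 317 with DESeq2, 1071 with limma-voom, 941 with the 2 groups alone and 261 to 680 with 1 library left out, and the 72 of the interaction became 207 without a filter and 38 to 108 with 1 library left out. The causes were not tested. Depth limits Klra3, Klra5, Klrb1f, Klrc3 and Klre1 most in the shallow Th17 libraries.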
